A study of Arabidopsis thaliana with 6 samples.

Results

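In unopened flower buds of a drought-treated Arabidopsis mutant, 55 probe sets read low on every array of days 3 and 4 and clearly higher on both arrays of day 5. They were selected on their measured log2 values on all 6 arrays, out of 22746 probe sets. All 4 arrays of days 3 and 4 had to lie under 6, and both day 5 arrays had to lie at least 1.5 above the highest of those 4. Genes AT3G17520, AT3G15670, AT5G66780 and AT2G21820 were left out by name. The first 2 met both conditions, while AT5G66780 and AT2G21820 passed the ceiling of 6 on day 4. Of the 55 probe sets, 26 have 1 gene in the annotation used here, and these genes are described by name. The other 29 are counted without a name.

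Every plant was under drought and of the Col-0 cultivar, with the T-DNA allele anac019-1 (SALK_096295) of ANAC019, which encodes a transcription factor of the NAC family. The groups were buds of drought day 3, day 4 and day 5, from plants 28, 29 and 30 days after germination, with 2 Affymetrix arrays per day. Watering stopped at 24 days of growth. Day 3 is the time, some 80 hours on, at which the soil held near 35% of its water capacity, and daily watering kept it so. Buds of wild-type or watered plants were not analysed here, so time under drought and plant age cannot be told apart, and nothing below separates the mutation from either. The insertion line is a single allele, and the labels do not say whether the replicates of a day came from separate pots, so the p-values rest on a spread between samples that may be technical only.

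Plant cells that lose water accumulate abscisic acid, a hormone that shuts stomata and switches on genes for protective proteins. Many of those genes also work in maturing seeds and in pollen, which dry out as part of their normal development. They encode late embryogenesis abundant proteins, storage globulins, and oil body proteins. A flower bud holds sepals, petals, ovules, and anthers with pollen at several stages, so RNA from a bud mixes many cell types.

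Array medians lay between 6.97 and 7.03, and Pearson's r between arrays across probe sets was 0.964 to 0.996. The mutated gene and the 9 floral organ identity genes chosen as bud markers have no named probe set, so neither the mutation nor the tissue label was checked through them. In bulk samples such as these, a change in the number of cells of a type and a change in RNA per cell cannot be told apart. Between day 5 and day 4, 22.1% of all probe sets passed an adjusted p of 0.05 in limma, 10.4% higher and 11.6% lower on day 5. Centring on the poly-A control probe sets shifted the median day 5 minus day 4 difference of all probe sets to -0.41, against -0.04 on the deposited scale. The mean of those 12 controls was 6.44 ± 0.13 for the day 3 arrays, 6.56 ± 0.11 for day 4 and 6.93 ± 0.15 for day 5 (SD, n = 2 arrays). That scale gave 913 higher and 8837 lower calls, against 2376 and 2644 as deposited.

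The rule selected few of the probe sets that started low. Of all 22746 probe sets, 8285 lay under 6 on each array of days 3 and 4, and 57 of these met the gap of 1.5, or 0.688%. Under the same ceiling and gap turned round, 9 probe sets were on through day 4 and low at day 5. Another 5 were low on day 3 and on at both later days, and 1 was on at day 3 and low on both later days. The 4 named genes of the first of these patterns were AT5G03350, AT4G11190, AT4G10270 and BCAT4. BCAT4, an aminotransferase of methionine-derived glucosinolate synthesis, read 7.51 and 8.33 on day 3, 7.82 and 7.65 on day 4, and 5.03 and 4.40 on day 5.

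**Figure D1:**
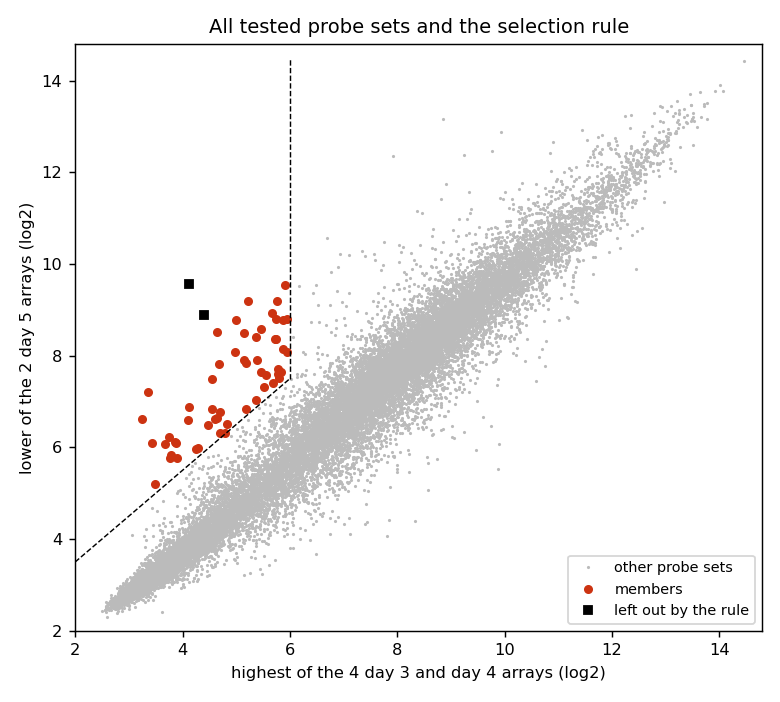
Each point is a probe set, with the highest of its 4 day 3 and day 4 arrays on the x axis and the lower of its 2 day 5 arrays on the y axis, both in log2. The dashed lines mark the ceiling of 6 and the gap of 1.5, the 55 red members lie inside them, and the 2 black squares are AT3G17520 and AT3G15670.

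Across the 55 members, day 3 means ran from 3.03 to 5.74 with a median of 4.53. Day 4 means ran from 3.02 to 5.82 with a median of 4.83, and day 5 means from 5.46 to 9.70 with a median of 7.58. These levels describe the selection and are given without a test. The gap between the lower day 5 array and the highest earlier array had a median of 2.29 and a range of 1.53 to 3.99. It was at least 2 in 39 members and at least 3 in 14. The median SD between replicates was 0.185 on day 3, 0.132 on day 4 and 0.163 on day 5. The rule set the gap on these same arrays, so the SDs are a description as well. The widest day 5 replicate pair differed by 0.93.

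**Figure D2:**
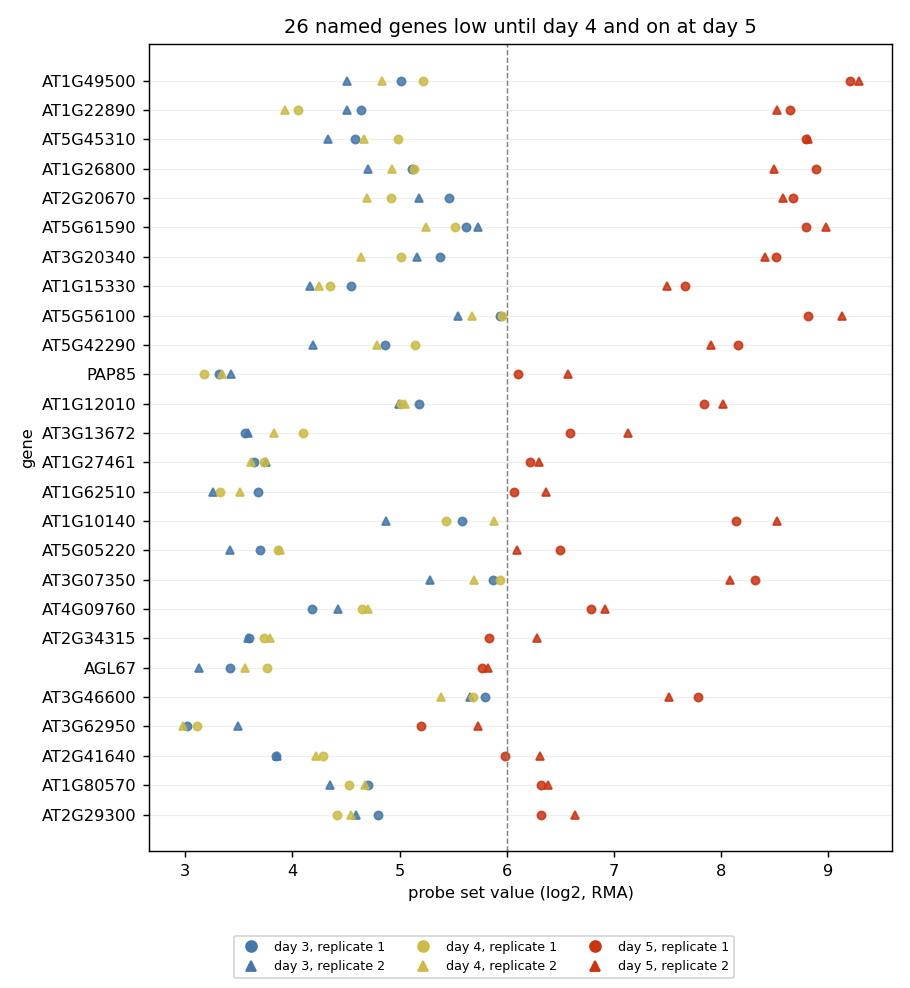
The 26 named members run down the page in order of their gap, with the log2 value of each array on the x axis, day 3 in blue, day 4 in yellow and day 5 in red. Circles are replicate 1 and triangles replicate 2, the dashed line is the ceiling of 6, and in every row both red symbols lie to the right of the other 4.

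Among the named genes, 3 encode transcriptional regulators. AT5G61590, known as DEWAX, is an AP2/ERF factor that represses genes of cuticular wax synthesis. It read 5.62 and 5.73 on day 3, 5.52 and 5.25 on day 4, and 8.79 and 8.98 on day 5. Its day 5 mean of 8.89 lay 3.50 above the day 4 mean of 5.38, or 11.3-fold. Both day 4 arrays lay below both day 3 arrays, as in 16.6% of all probe sets under the ceiling. That difference of -0.29 did not pass (limma adjusted p = 0.60). Of 12 other wax synthesis genes looked up, 2 were measured. WSD1, a wax ester synthase, fell by 0.69 ± 0.12 on day 5 (SE, limma adjusted p = 0.0072), with 9.90 and 9.70 on day 5 against 10.43 and 10.55 on day 4. That call was lost without day 4 replicate 2 or day 5 replicate 2, where the adjusted p reached 0.0726. ACLA-2, an ATP citrate lyase subunit, differed by -0.32 between day 5 and day 4 and did not pass (limma adjusted p = 0.148). AT5G07580, the only measured relative of DEWAX in ERF group IX, differed by 0.04 (limma adjusted p = 0.90).

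AGL67 belongs to the MIKC* group of MADS-box factors, which is best known from pollen, and AGL67 itself is linked to desiccation tolerance of seeds. Its probe set read 3.42 and 3.13 on day 3, 3.77 and 3.56 on day 4, and 5.77 and 5.82 on day 5. It is one of the members that stayed under 6 even on day 5, at a mean of 5.80. Of its 6 measured MIKC* relatives, 2 rose on day 5 and 4 did not pass, with a median difference of 0.52. AGL66 rose by 0.97 ± 0.13 (SE, limma adjusted p = 0.0023), with 7.08 and 7.25 on day 5 against 6.29 and 6.10 on day 4. AGL104 rose by 1.06 ± 0.17 (limma adjusted p = 0.0049), with 7.36 and 7.51 on day 5 against 6.57 and 6.17 on day 4. Both relatives act in late pollen and also stand on the pollen marker list. AT3G46600, a GRAS family factor, read 5.80 and 5.66 on day 3, 5.68 and 5.38 on day 4, and 7.78 and 7.51 on day 5. Its day 5 mean lay 2.11 above that of day 4. Of its 4 measured relatives 3 did not pass, and AT1G07520 rose by 0.55 ± 0.14 (SE, limma adjusted p = 0.0269), a call lost on leaving out any day 4 or day 5 array, with an adjusted p up to 0.149.

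Of 13 late pollen markers 8 were measured, and 5 rose on day 5 against day 4 (ACT12, AGL66, AGL104, ANX1 and MGH3), beside 10.4% of all probe sets called higher. The other 3 did not pass, with differences of -0.002 for ACT11, 1.00 for ANX2 and 0.56 for TUA1 (limma adjusted p = 0.995, 0.134 and 0.195). The mean log2 value of the 8 measured markers was 7.70 and 8.14 on the day 5 arrays. It was 7.12 and 7.14 on the day 4 arrays, and the day 3 arrays gave 6.89 and 7.17. ANX1, a receptor kinase of pollen tubes, rose by 0.89 ± 0.13 (SE, limma adjusted p = 0.0041). MGH3, a histone of male gametes, rose by 0.93 ± 0.25 (limma adjusted p = 0.0358), and that call was lost without any of the day 4 or day 5 arrays, with an adjusted p up to 0.185. ACT12, a pollen actin, rose by 0.91 ± 0.14 (limma adjusted p = 0.0048) but not without day 4 replicate 2 (adjusted p = 0.0524). Whether pollen content plays a part in the members' levels was not tested.

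PAP85 encodes a vicilin-like globulin, a kind of storage protein laid down in maturing seeds. It read 3.32 and 3.43 on day 3, 3.17 and 3.34 on day 4, and 6.10 and 6.57 on day 5. The day 5 mean lay 3.08 above that of day 4, or 8.46-fold, while the days before overlapped. Its 3 measured vicilin-like relatives, AT2G18540, AT2G28490 and AT4G36700, read between 3.17 and 3.67 on average on day 5 and between 3.12 and 3.89 on day 4. None of them passed the test, with differences of 0.05, 0.06 and -0.22 (limma adjusted p = 0.84, 0.80 and 0.54). Only 2 of the 20 genes on the list of seed storage and oil body proteins were measured. AT3G01570, of the oleosin family that coats oil bodies, rose by 1.41 ± 0.13 on day 5 (SE, limma adjusted p = 6.6e-04), with 7.12 and 7.15 on day 5 against 5.86 and 5.59 on day 4. OLEO3 did not pass, at a mean of 7.02 on day 5 and 7.16 on day 4 (limma adjusted p = 0.559). The mean of the pair was 7.10 and 7.06 on the day 5 arrays, against 6.56 and 6.33 on day 4, and day 3 gave 5.79 and 5.92. The part of seed tissue in the level of PAP85 was not tested.

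Another pair of named members encode small proteins of the seed and surface type. AT5G56100, a glycine-rich protein related to oleosins, read 5.94 and 5.54 on day 3, 5.95 and 5.68 on day 4, and 8.81 and 9.13 on day 5. At 5.95 its first day 4 array was the value nearest to the ceiling among the named members. AT1G62510, of the lipid-transfer and albumin superfamily, read 3.67 and 3.26 on day 3, 3.33 and 3.51 on day 4, and 6.07 and 6.37 on day 5. The next gene along the chromosome, AT1G62500 of the same superfamily, went the other way. It fell by 1.51 ± 0.21 (SE, limma adjusted p = 0.0030), with 8.68 and 7.98 on day 5 against 9.79 and 9.89 on day 4. The other 6 measured genes of this superfamily did not pass, with differences between day 5 and day 4 from -0.32 to 1.03.

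Among the named members, 2 belong to families of ubiquitin ligases, enzymes that mark proteins for breakdown. AT1G26800, a RING-type ligase, read 5.12 and 4.71 on day 3, 5.14 and 4.93 on day 4, and 8.88 and 8.49 on day 5. AT3G13672, listed as SINA2 of the SINA family, read 3.56 and 3.59 on day 3, 4.10 and 3.83 on day 4, and 6.59 and 7.13 on day 5. Day 4 already lay 0.39 above day 3 for this gene, with no overlap, but the step did not pass the test. Of its 4 measured SINA relatives, AT5G53360 rose by 0.73 ± 0.20 on day 5 (SE, limma adjusted p = 0.0338) and 3 did not pass. That call was lost without either day 4 array or without day 5 replicate 2, where the adjusted p was 0.18.

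The named members also include an enzyme gene of ethylene synthesis, a gene of the choline kinase family and a glycosyltransferase gene. AT1G12010 encodes an ACC oxidase, the enzyme of the last step of ethylene synthesis. It read 5.18 and 5.00 on day 3, 5.01 and 5.05 on day 4, and 7.84 and 8.01 on day 5, which put the day 5 mean 7.44-fold above day 4. AT4G09760, of the choline kinase family that starts phosphatidylcholine synthesis, read 4.18 and 4.42 on day 3, 4.65 and 4.70 on day 4, and 6.78 and 6.92 on day 5. Its relative AT1G74320 rose by 0.45 ± 0.12 (SE, limma adjusted p = 0.0376), a call lost on leaving out any day 4 or day 5 array, with an adjusted p up to 0.246. AT2G41640, a glycosyltransferase of family GT61, read 3.85 and 3.85 on day 3, 4.28 and 4.22 on day 4, and 5.98 and 6.30 on day 5. None of its 6 measured GT61 relatives passed the test between day 5 and day 4, and their differences ran from -0.15 to 0.53.

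AT2G29300 is one of a row of tropinone reductase-like dehydrogenase genes on the chromosome. It read 4.80 and 4.60 on day 3, 4.42 and 4.55 on day 4, and 6.32 and 6.64 on day 5, the smallest gap of all members at 1.53. Of 10 measured relatives, AT2G29290, the gene beside it, rose by 1.23 ± 0.13 on day 5 (SE, limma adjusted p = 0.0011), with 7.15 and 7.16 on day 5 against 5.79 and 6.07 on day 4. AT2G29260 fell by 0.54 ± 0.14 (limma adjusted p = 0.0272), a call lost on leaving out any day 4 or day 5 array, with an adjusted p up to 0.148. The other 8 did not pass. Such near relatives can share probes, and whether the probe sets of this row respond to each other's transcripts was not tested.

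AT3G62950 encodes a CC-type glutaredoxin, a small redox protein of a plant family that includes flower regulators. It had the lowest day 5 mean of all members, at 5.46, and read 3.02 and 3.49 on day 3, 3.11 and 2.98 on day 4, and 5.19 and 5.73 on day 5. Of its 16 measured relatives, 2 rose, 1 fell and 13 did not pass, with a median difference between day 5 and day 4 of -0.13. AT2G47880 rose by 1.55 ± 0.13 (SE, limma adjusted p = 4.3e-04), with 8.06 and 8.25 on day 5 against 6.69 and 6.52 on day 4. Next to AT3G62950 on the chromosome, AT3G62960 rose by 0.62 ± 0.15 (limma adjusted p = 0.0228), a call lost on leaving out any day 4 or day 5 array, with an adjusted p up to 0.12. AT5G11930 fell by 1.52 ± 0.20 (limma adjusted p = 0.0026), with 4.62 and 4.11 on day 5 against 5.84 and 5.93 on day 4. ROXY1 and ROXY2, glutaredoxins that act in petal and anther development, differed by -0.17 and -0.35 and did not pass (limma adjusted p = 0.693 and 0.154).

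AT1G15330 encodes a CBS-domain protein related to the regulatory subunits of SnRK1, a kinase of the energy status. It read 4.55 and 4.16 on day 3, 4.35 and 4.25 on day 4, and 7.67 and 7.49 on day 5. Of 3 measured SnRK1 subunit genes, AKINBETA1 rose on day 5 by 0.99 ± 0.11 (SE, limma adjusted p = 0.0014), with 8.90 and 8.85 on day 5 against 7.82 and 7.94 on day 4. AT4G16360 and AT2G28060 differed by 0.11 and 0.14 and did not pass (limma adjusted p = 0.683 and 0.477). AKINBETA1 also stands on a list of genes of the carbon starvation response, of whose 20 entries 4 were measured. There, MCCA and IVD, which break down leucine, rose by 0.74 ± 0.13 and 0.57 ± 0.12 (limma adjusted p = 0.0081 and 0.0124), and MCCB did not pass. Without either day 4 array or without day 5 replicate 2 the MCCA and IVD calls were lost, with adjusted p up to 0.0677 and 0.11.

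A pair of members share a plant domain of unknown function, DUF506. AT2G20670 read 5.46 and 5.18 on day 3, 4.92 and 4.69 on day 4, and 8.67 and 8.58 on day 5. AT3G07350 read 5.87 and 5.28 on day 3, 5.94 and 5.69 on day 4, and 8.31 and 8.08 on day 5. AT2G20670 was thus lower on both day 4 arrays than on day 3, while the days overlapped for AT3G07350. Neither difference between these days passed (limma adjusted p = 0.26 and 0.82). Of 4 other measured DUF506 genes, AT2G38820 rose by 1.34 ± 0.11 (SE, limma adjusted p = 4.8e-04), with 9.79 and 9.76 on day 5 against 8.50 and 8.37 on day 4. AT1G12030, AT2G39650 and AT3G22970 did not pass, with differences of -0.12, 0.12 and 0.02.

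**Figure D3:**
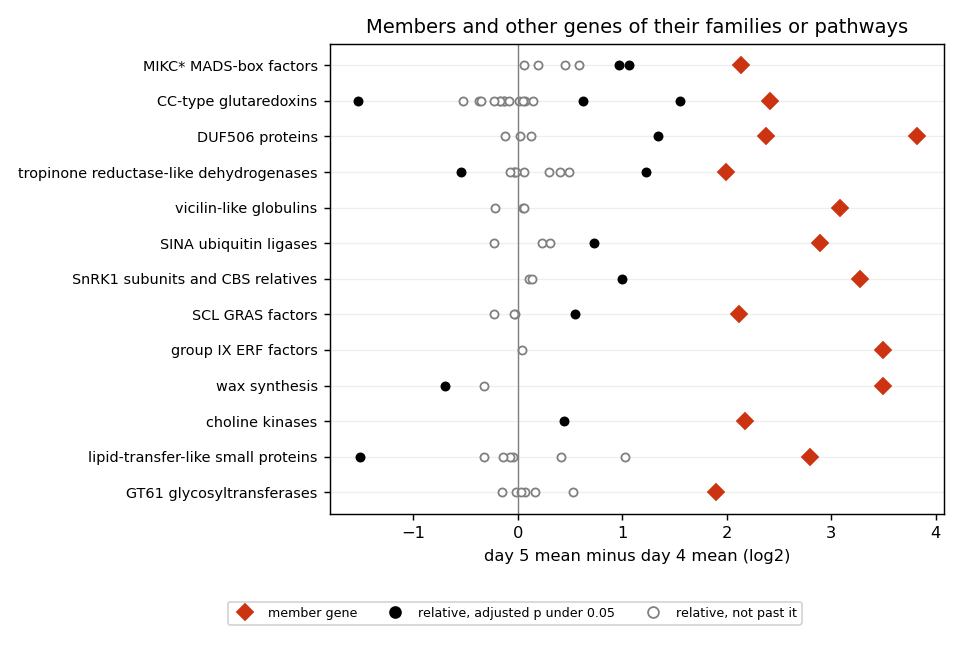
Each row is a gene family or pathway of a named member, with the day 5 minus day 4 difference of log2 means on the x axis. Red diamonds are the members (DEWAX appears in both the ERF and the wax row), filled circles are relatives past an adjusted p of 0.05, and open circles are relatives that were not, most of which lie near 0.

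Over all 13 families, which were chosen after the members were known, 67 of 120 relatives were measured. Of these, 10 rose on day 5, 4 fell and 53 did not pass, and their median difference from day 4 was 0.04, against -0.04 for all probe sets. That is 14 calls of 67 beside 22.1% of all probe sets, so the relatives were called about as often as probe sets in general. With centring on the poly-A controls the split was 6 higher and 18 lower, and the rises of AT3G62960, AT1G07520, AT1G74320 and AT5G53360 were no longer called. Leaving out day 4 replicate 1 gave 9 calls, and leaving out day 4 replicate 2 or day 5 replicate 2 gave 8.

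The named genes with the widest gaps have no role given here. AT1G49500 had the widest gap of all members, 3.99, and read 5.01 and 4.51 on day 3, 5.21 and 4.83 on day 4, and 9.20 and 9.28 on day 5. AT1G22890 had the largest difference between day 5 and day 4, 4.59 or 24.1-fold, and read 4.64 and 4.51 on day 3, 4.06 and 3.93 on day 4, and 8.64 and 8.52 on day 5. AT5G45310 read 4.59 and 4.33 on day 3, 4.99 and 4.67 on day 4, and 8.79 and 8.81 on day 5. Before day 5 the arrays of these 3 genes were ordered differently. AT1G22890 was lower on day 4 than on day 3, AT5G45310 was higher and the AT1G49500 arrays of these days overlapped. None of these differences passed (limma adjusted p = 0.12, 0.50 and 0.77). Of all probe sets under the ceiling, 16.6% had both day 4 arrays below both day 3 arrays and 15.2% had both above. AT3G20340 read 5.38 and 5.16 on day 3, 5.01 and 4.64 on day 4, and 8.51 and 8.41 on day 5. AT5G42290 read 4.87 and 4.20 on day 3, 5.14 and 4.79 on day 4, and 8.16 and 7.91 on day 5. AT1G10140 read 5.58 and 4.87 on day 3, 5.44 and 5.88 on day 4, and 8.14 and 8.52 on day 5. The day 3 replicates of AT1G10140 lay furthest apart among the members, with an SD of 0.51.

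The remaining 4 named members had lower day 5 levels. AT1G27461 read 3.64 and 3.76 on day 3, 3.73 and 3.61 on day 4, and 6.22 and 6.30 on day 5. AT5G05220 read 3.70 and 3.42 on day 3, 3.87 and 3.88 on day 4, and 6.49 and 6.09 on day 5. For AT1G27461 the 2 earlier days overlapped, and for AT5G05220 both day 4 arrays lay above both day 3 arrays. AT2G34315 read 3.59 and 3.59 on day 3, 3.73 and 3.79 on day 4, and 5.84 and 6.28 on day 5. AT1G80570 read 4.70 and 4.35 on day 3, 4.52 and 4.67 on day 4, and 6.32 and 6.38 on day 5. With gaps of 1.53, 1.61 and 1.70, AT2G29300, AT1G80570 and AT2G41640 were taken as the named members just inside the threshold of 1.5, and AT4G28085, AT5G07330 and AT3G49790 lay just outside it at 1.42, 1.41 and 1.40. Just past the ceiling stood AT4G23880, AT2G05540 and AT1G76590, whose highest day 3 or day 4 values were 6.07, 6.16 and 6.44.

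The rule used the day 3 and day 4 values through its ceiling and its gap, but not the difference between these days. That choice limits how far a member could differ between them, so the counts of this step are given without a reading. In limma, 2 of the 55 passed an adjusted p of 0.05, both higher on day 4 and both without a listed gene, beside 0.501% of all probe sets called in either direction and 0.268% called higher. The first rose by 0.79 ± 0.12 (SE, limma adjusted p = 0.0432), with 5.70 and 5.77 on day 4 against 4.94 and 4.95 on day 3. The second rose by 1.32 ± 0.20 (limma adjusted p = 0.0478), with 5.67 and 5.07 on day 4 against 4.02 and 4.08 on day 3. Both calls were lost on leaving out any 1 of the 6 arrays, the day 5 arrays included, and with the replicate number as a block. For this step, leaving out either day 5 array is the same fit as using only the 4 arrays of days 3 and 4. Those fits are therefore not separate checks. At an unadjusted p under 0.05 there were 21 members, 14 higher and 7 lower. The share of all probe sets at that unadjusted threshold was not counted, so this number has no baseline. None of the 26 named members passed the adjusted threshold, and 7 had an unadjusted p under 0.05, again without a baseline. The smallest adjusted p among them was 0.121, for AT1G22890, which differed by -0.58 between day 4 and day 3.

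The order of the arrays over these days was also counted, without a threshold. Both day 4 arrays lay above both day 3 arrays in 23 of the 55 members (41.8%), beside 15.2% of the 8285 probe sets under the ceiling and 17.8% of all probe sets. Both lay below in 9 members (16.4%), beside 16.6% under the ceiling and 21.2% of all, and in the other 23 the days overlapped. These shares are a description, for the same reason. The median difference between day 4 and day 3 was 0.17 over the members and -0.003 over all probe sets under the ceiling. Among the 26 named members, 7 had both day 4 arrays above (26.9%) and 5 had both below (19.2%). The 7 were AT2G41640, AT4G09760, AGL67, AT5G45310, AT3G13672, AT5G05220 and AT2G34315, by 0.17 to 0.40. The 5 were AT1G22890, AT2G20670, AT3G20340, DEWAX and AT2G29300, by -0.58 to -0.21.

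**Figure D4:**
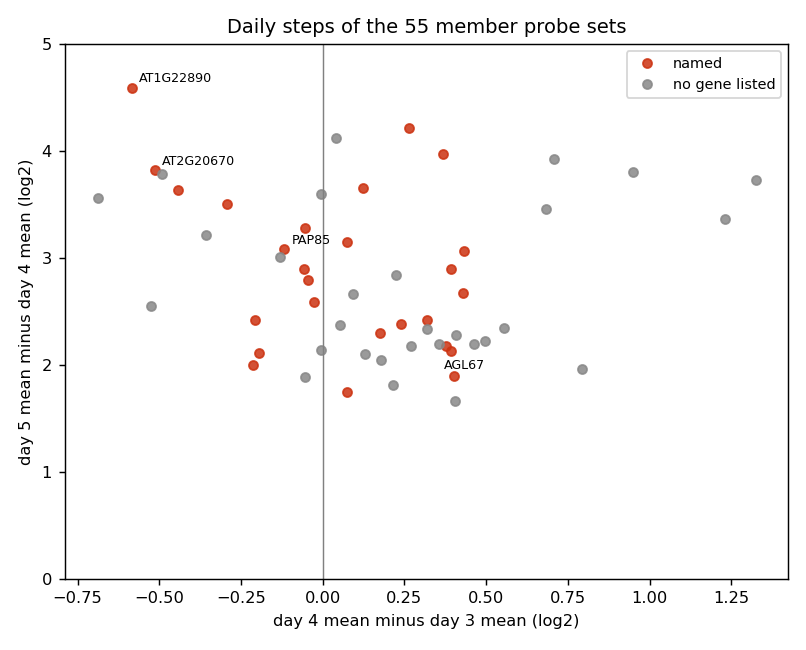
Each point is 1 of the 55 members, with the day 4 minus day 3 difference of log2 means on the x axis and the day 5 minus day 4 difference on the y axis, named members in red and members with no listed gene in grey. The x values spread on both sides of 0, from -0.69 to 1.32, while the y values start at 1.67.

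A large last step was set by the rule, and its size is given as a description. The day 5 minus day 4 difference had a median of 2.67 and ran from 1.67 to 4.59. The day 5 minus day 3 difference had a median of 2.76 and ran from 1.78 to 5.05. Per member, the last step made up a median of 94.1% of the day 5 minus day 3 difference, and between 71.2% and 125.9%, where a share above the whole marks a gene that was lower on day 4 than on day 3. The named genes at the low end were AT2G41640 at 82.5% and AGL67 at 84.5%, and at the high end AT2G20670 at 115.5% and AT1G22890 at 114.6%. Day 5 replicate 2 was the higher one in 35 of the 55 members, by a median of 0.11 over all of them. The mean over the members was 4.60 and 4.43 on the day 3 arrays, 4.73 and 4.63 on the day 4 arrays, and 7.45 and 7.54 on the day 5 arrays.

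None of the 26 named members stands on the lists written down for this tissue. The lists cover drought, abscisic acid and seed genes, the carbon starvation response, and markers of late pollen and floral organs. The 29 members without a name could not be matched to them. AT3G17520 and AT3G15670 met the rule and stand on these lists, but were left out by name. The lack of overlap is thus partly set by the selection. List genes are also few, 52 with these genes set aside, beside 13513 probe sets with 1 gene. The lack of overlap is therefore not read as a result about the members. Of the lists' 205 entries 52 were measured, with AT3G17520 and AT3G15670 set aside and AT5G66780 kept. Between day 5 and day 4, 30 of the 52 rose, 1 fell and 21 did not pass, and AT5G66780 and 5 pollen markers are among the rises. Their median difference was 0.71, against -0.04 for all probe sets, of which 10.4% were called higher and 11.6% lower, 22.1% in all. The lists were chosen with earlier results of these data known, so this contrast is a description. With centring on the poly-A controls the split was 20 higher and 8 lower, and MCCA, IVD and MGH3 were among the rises no longer called. The 31 calls became 20 on leaving out day 4 replicate 1, 13 on leaving out day 4 replicate 2, and 19 on leaving out day 5 replicate 2. For abscisic acid receptors, their phosphatases, SnRK2 kinases, abscisic acid synthesis, raffinose sugars and the master regulators of seed maturation, no named probe set was measured. EEL and BZIP53, the 2 measured bZIP factors of abscisic acid response, differed by -0.23 and 0.05 and did not pass (limma adjusted p = 0.441 and 0.816).

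The list of late embryogenesis abundant proteins, which protect cells during drying, held most of the measured genes. With AT3G17520 and AT3G15670 set aside and AT5G66780 kept, 35 were measured there, of which 20 rose on day 5, 1 fell and 14 did not pass. LEA18 rose by 3.45 ± 0.18 (SE, limma adjusted p = 5.8e-05), with 9.83 and 10.15 on day 5 against 6.77 and 6.31 on day 4, and its day 3 arrays read 5.29 and 5.45. LEA4-5 rose by 3.05 ± 0.26 (limma adjusted p = 5.1e-04), with 11.12 and 11.46 on day 5 against 8.46 and 8.02 on day 4, and its day 3 arrays read 6.09 and 6.82. COR15B, a cold- and drought-regulated chloroplast protein, fell by 1.25 ± 0.11 (limma adjusted p = 6.6e-04). LEA18 and LEA4-5 had also risen on day 4 against day 3, by 1.17 ± 0.18 and 1.78 ± 0.26 (limma adjusted p = 0.0478 and 0.0394). Of all measured list genes 4 were called in that step, and leaving out any single array brought this to between 0 and 2. Of the 15 genes of this list that started under the members' ceiling, 7 rose on day 5 and 8 did not pass, with a median difference of 0.37. These 15 leave out AT3G17520 and AT3G15670, which also started under it and met the rule. Their day 5 means lay 5.53 and 4.89 above those of day 4.

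HIS1-3, a drought-induced linker histone, lay under the members' ceiling on day 3 but not on day 4. It read 4.83 and 4.98 on day 3, 7.92 and 6.70 on day 4, and 12.36 and 12.49 on day 5, and on day 5 it rose by 5.12 ± 0.33 against day 4 (SE, limma adjusted p = 1.5e-04). GI, the clock gene GIGANTEA, likewise lay under the ceiling on day 3 and above it on day 4. It read 5.96 and 5.73 on day 3, 8.37 and 8.12 on day 4, and 9.32 and 9.31 on day 5.

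Genes beside the named members on the chromosome, taken from gene order alone, moved both ways. No pair of named members were neighbours. Of 52 neighbouring genes 22 were measured, and between day 5 and day 4, 5 rose, 5 fell and 12 did not pass, with a median of 0.02, and 22.1% of all probe sets were called. CEG, beside PAP85, rose by 1.22 ± 0.23 (SE, limma adjusted p = 0.0098), with 6.93 and 6.59 on day 5 against 5.91 and 5.17 on day 4. Without day 4 replicate 2 its adjusted p was 0.0519. AT1G49490, beside AT1G49500, rose by 1.05 ± 0.28 (limma adjusted p = 0.0348), with 6.66 and 7.55 on day 5 against 5.84 and 6.26 on day 4, and its adjusted p reached 0.191 without day 4 replicate 1. AT1G77940, beside AGL67, fell by 0.40 ± 0.11 (limma adjusted p = 0.0331), and its adjusted p reached 0.192 without day 4 replicate 2. Leaving out day 4 replicate 1 turned the 10 calls into 3, and leaving out day 4 replicate 2 into 2. For day 5, replicate 1 left out gave 6 calls and replicate 2 left out gave 3.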

How the data were processed

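The authors deposited log2 probe set values for 6 single-colour Affymetrix arrays of biotin-labelled RNA. The submitters' processing notes list RMA and affy among the tools, and versions are not given in the sources used here. RMA equalises the arrays' distributions, so each change is relative to the other transcripts, and it compresses changes of dim probe sets, so folds from low values are understated. Tests excluded the 64 control probe sets. Probe sets were named by the platform annotation (13513 with 1 gene, 503 with several, 8730 with none listed), with symbols from a TAIR10.1 gene table.

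Day means were compared in limma 3.58.1 (R 4.3.3, lmFit and eBayes, all 6 arrays, 3 group means, 3 residual degrees of freedom, two-sided), with Benjamini-Hochberg adjustment over 22746 probe sets and a threshold of 0.05. No p is given for members where day 5 is compared, because the rule used those values. Members and lists were chosen with earlier results of these data known, and the families and neighbours after seeing the values. Every member with 1 gene could be named, with up to 4 genes per list and all called relatives. MGH3, MCCA, IVD and the genes of other patterns were chosen after their values were seen. The alternatives were a filter on means under 5, a trended robust prior, cyclic loess, median centring, a replicate block, array weights, 4 arrays only, probe sets with 1 gene, and leaving out each array. Centring on the 12 poly-A controls was added after seeing the data. Array number limits the precision. Promoter motifs were not analysed here.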

Additional observations from a re-analysis of the deposited data

How the results depend on the processing

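None of the results changed direction past the threshold under the alternatives run. The 2 members called between day 4 and day 3 became 1 with array weights, 0 with the replicate block, 0 with probe sets of 1 gene only (where the called probe sets are not in the fit), 0 with the 4 arrays of these days, and 0 to 0 on leaving out each array, while the filter gave 3. The 31 calls of the lists between day 5 and day 4 ranged from 13 to 30 over the arrays left out, and centring on the poly-A controls gave 28. Of the lists' 4 calls between day 4 and day 3, array weights left 2, the 4 arrays of these days left 0, and leaving out each array gave 0 to 2. The rule selected 28 probe sets with a ceiling of 5, 76 with a ceiling of 7, 114 with a gap of 1, 39 with a gap of 2 and 33 after centring on the poly-A controls. Applied without an array it selected 55 to 75. Leaving out an array can only loosen the rule, so all 55 members were bound to stay. Relatives called numbered 24 after centring on the poly-A controls, against 14, and 8 to 17 over the arrays left out. Neighbours called, 10 as reported, ranged from 2 to 9. The cause of these shifts was not tested, apart from the fewer arrays in the fits that leave out arrays. Where that left 1 array for a day, its spread was assumed to be that of the other days. A comparison of the other days with each other then equals the fit of their 4 arrays alone.

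Of 160 results for single genes, 26 of them the named members' day 4 against day 3 difference, 49 were called, all outside the members. Leaving out an array lost 2 with either day 3 array, 22 with day 4 replicate 1, 31 with day 4 replicate 2, 14 with day 5 replicate 1 and 24 with day 5 replicate 2. The poly-A centring lost 15. In 115 cases a difference changed sign where neither value was called. Replicate numbers do not pair the samples in the labels, and the deviations of same-numbered arrays correlated at 0.0987 for days 3 and 4, 0.376 for days 4 and 5 and 0.145 for days 3 and 5 across probe sets. The replicate block lost 1 of the 49 calls, gained 5, and gave 31 list calls between day 5 and day 4 and 3 between day 4 and day 3.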
